A study of Mus musculus with 12 samples.

Results

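The comparison described here sets neonatal mouse cortex in which both histone H3.3 genes were targeted in postmitotic neurons against control cortex. It uses 8 of the 12 RNA libraries of the series, chosen by their titles, and every gene with enough counts to be tested. The study asked what the loss of H3.3 from new cortical neurons does to their chromatin and RNA. All libraries are from cortex at postnatal day 0 (P0): 4 are labelled control and 4 are H3f3a/H3f3b conditional knockouts made with the Neurod6-Cre driver (dKO-N). Ribosomal RNA was removed and ClickSeq libraries were made with unique molecular identifiers, in which sequencing adapters are joined to randomly ended cDNA by click chemistry. The other 4 libraries are H3f3a/H3f3b knockouts made with Emx1-Cre (dKO-E), a driver of cortical progenitors, and are used here to estimate the spread and to show where dKO-N differed from them. The labels name neither the strain nor the exact floxed and Cre alleles, and they do not say whether the controls carry floxed alleles or Cre. Nor do they state that each library is its own animal, so the p-values measure only how far these libraries differ, and that difference could be technical.

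Histone H3.3 is a variant of histone H3 that is placed into chromatin outside DNA replication, at active genes and their regulatory elements as well as at some silenced repeats. Replication-coupled H3.1 and H3.2 are made while cells copy their DNA, so a neuron that has left the cell cycle depends on H3.3 for new H3. During the days before birth, excitatory neurons of the cortex take on layer identities, grow axons and begin to make synaptic proteins. Neurod6-Cre acts in these excitatory neurons once they are born, so that progenitors, inhibitory interneurons, glia and vessel cells of the same tissue lie outside its reach. The RNA of all these cells is mixed in each library, and in such bulk tissue fewer cells of a type and less RNA per cell cannot be told apart.

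The 4 control libraries held 1974975 to 3083599 counts in genes and the 4 dKO-N libraries 722080 to 3502017. In dKO-N 1 and 3, the shallowest libraries, 3 counts correspond to 4.15 and 4.02 counts-per-million (CPM, scaled by TMM elsewhere), so low genes are measured less well there. The markers of cortex were present: the upper-layer neuron list summed to between 7865 and 11440 CPM, the layer 6 list to between 6853 and 8583 CPM and the interneuron list to between 4524 and 5772 CPM over the 8 libraries. Tubb3 and Neurod1 of neurons, Sox2 of progenitors and Pou3f3 of upper layers had 0 counts in all 8, and each of these overlaps another annotated gene. On the first principal component of all 12 libraries (25.6% of the variance), the controls lay between -28.5 and -25.4 and dKO-N 1 to 3 between 9.41 and 11.8. dKO-N 4, the deepest of the group, lay nearer the controls at 0.05. Counts of Y-linked genes were 1035 and 274 in dKO-E 3 and 4 and 0 to 3 in the other 10 libraries, so sex differs within dKO-E and not between control and dKO-N.

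The targeted genes did not separate the groups. H3f3a was at 17.7, 117, 16.4 and 121 CPM in control 1 to 4 and 36.7, 30.8, 22.1 and 37.8 CPM in dKO-N 1 to 4. The libraries labelled control 1 and 3 thus lay below every dKO-N library and went against their label, while control 2 and 4 lay above all of them. H3f3a did not pass the test (log2 fold change -0.96, SE 0.71, adjusted p = 0.494), while without control 1 and 3 its log2 fold change was -1.84 (adjusted p = 1.34e-09) and without control 2 and 4 it was 0.94 (adjusted p = 0.0081). H3f3b was at 121, 76.7, 143 and 84.2 CPM in control 1 to 4 and 146, 117, 113 and 111 CPM in dKO-N 1 to 4 and did not pass either (log2 fold change 0.16, SE 0.15, adjusted p = 0.583), but was higher without control 1 and 3 (0.57, adjusted p = 0.00749). For H3f3b it was control 2 and 4 that lay below every dKO-N library and went against their label. Neither pair of controls thus held to its label for both targeted genes. Counts summed over the gene cannot tell a deleted segment from the rest of its RNA, and neither gene checks the knockout label here. Every direction below is therefore one between labels, and many counts are given again without control 1 and 3 or without control 2 and 4.

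In dKO-N, 1255 of 11076 genes passed the test (11.3%), 558 of them higher (5.04%) and 697 lower (6.29%), by edgeR's quasi-likelihood test with Benjamini-Hochberg adjustment. The median change of all genes tested was 0.01 on the log2 scale. Most changes were modest: the median size was 1.62-fold among the higher genes and 1.58-fold among the lower, and 335 genes changed at least 2-fold (153 higher, 182 lower). Changes of at least 8-fold numbered 6 higher and 4 lower. Where a gene passed, the groups of libraries usually stood apart: the CPM ranges did not overlap for 406 of the 558 higher genes and 581 of the 697 lower, against 13% of all genes tested.

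Higher and lower genes differed in how strongly they were expressed in control cortex. The median control level was 31.6 CPM for the higher genes and 113 CPM for the lower, against 28.7 CPM for all genes tested. Of the higher genes, 76 had a control mean under 5 CPM against 0 of the lower. A gene this low in control passes the filter mostly through its counts in a knockout group, and a fall from there is hard to detect. These counts are therefore largely set in advance. Among called genes changed at least 2-fold, 40 lower and 5 higher had a dKO-N mean under 5 CPM. Of the 978 genes with at least 200 CPM in control, 232 were lower and 69 higher, so that 30.8% of the abundant genes passed. In sum, the lower genes held 217700 CPM in control and 143200 CPM in dKO-N, and the higher genes 60990 CPM in control and 88380 CPM in dKO-N. The count of calls depended on the control libraries: it was 756 without control 1 and 3, and 700 without control 2 and 4. With library totals in place of TMM scaling, 57.8% of the calls were higher, against 44.5%, and the median over the table shifted to 0.07.

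**Figure D1:**
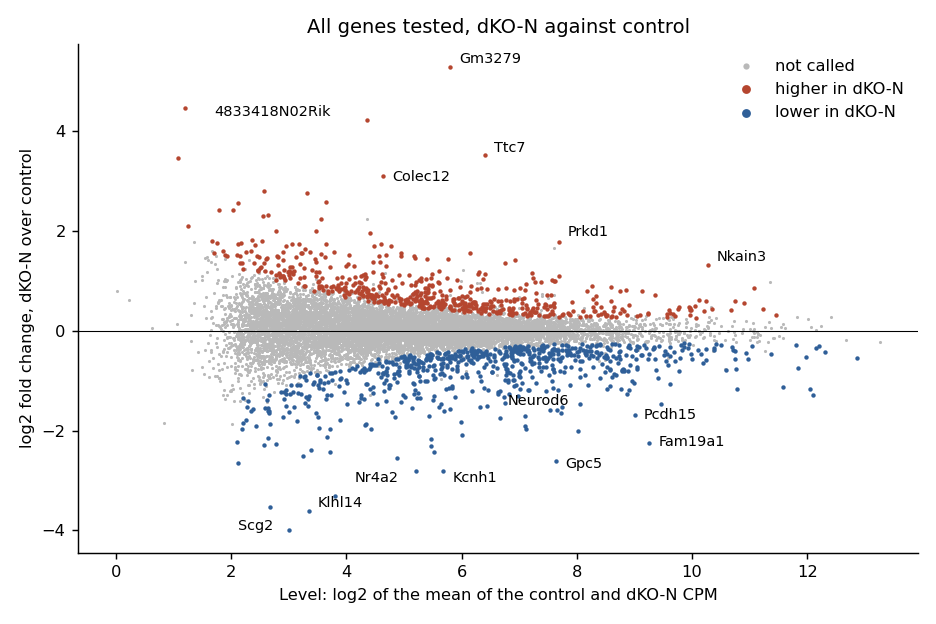
Each point is 1 of the genes tested, by its level (log2 of the mean of the control and dKO-N CPM) and its log2 fold change in dKO-N over control, coloured where the adjusted p was under 0.05. The genes that rose most, such as Gm3279, Ttc7 and Colec12, sit at low to middle levels, while the right side of the plot holds more lower genes than higher ones.

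Genes that passed were longer than genes that did not. The median length from start to end was 86.2 kb for the higher genes and 107 kb for the lower, against 29.1 kb for genes that did not pass and 32.2 kb for all. Among genes under 10 kb, 2.17% were higher and 2.86% lower, whereas among genes over 300 kb 11.4% were higher and 27.1% lower. Long genes were also more abundant, which makes a change easier to detect: 413 of 554 genes over 300 kb were over 100 CPM in control, against 84 of 1889 under 10 kb. Among genes over 100 CPM in control, 9.69% of those over 300 kb were higher and 32.4% lower, against 3.57% and 7.14% of those under 10 kb. Among genes under 20 CPM in control, rises made up most calls at every length from 10 kb up, at 16.7% of genes of 100 to 300 kb against 2.21% for falls. The ranges of level use the same control values as the test, and low genes can pass the filter through a knockout group. Which direction prevails within a range is therefore partly set in advance. The part of length in the calls was not tested.

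**Figure D2:**
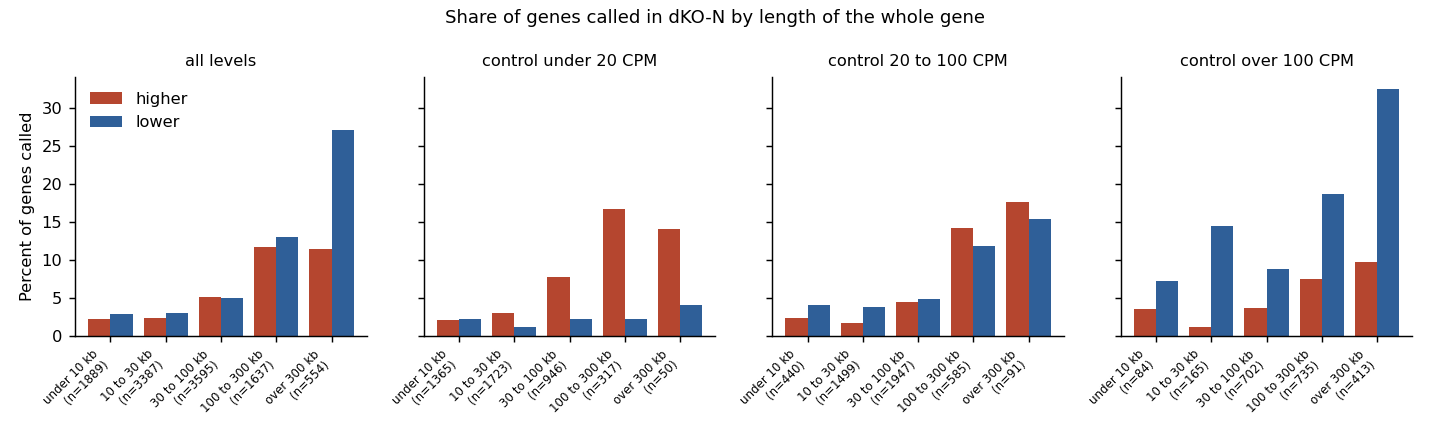
Bars give the percent of genes called higher (red) and lower (blue) in dKO-N by length of the whole gene, for all genes and within 3 ranges of the control level, with the number of genes under each pair of bars. In the panel of all genes the share lower grows from 2.86% under 10 kb to 27.1% over 300 kb, and falls exceed rises at every length in the panel of abundant genes. The ranges are cut on the control values that the test also uses, so the direction that prevails in a panel is partly set in advance.

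Genes with an established name that are given here and below for the size of their change were chosen with CPM ranges that do not overlap. Their separation is thus no further support. Among those whose log2 CPM averaged at least 3, the largest rise was in Ttc7, which encodes a tetratricopeptide repeat protein that helps hold the kinase complex making phosphatidylinositol 4-phosphate at the plasma membrane. Ttc7 was at 14.8, 13.3, 12.1 and 12.4 CPM in control 1 to 4 and 178, 164, 156 and 124 CPM in dKO-N 1 to 4. No dKO-N library came near a control (log2 fold change 3.51, SE 0.28, adjusted p = 1.95e-06). The RNA gene 4833418N02Rik, whose start lies 72 bases from that of Ttc7 on the opposite strand, was at 1.77, 1.07, 2.16 and 2.58 CPM in control 1 to 4 and 39.5, 45.7, 45.5 and 26.4 CPM in dKO-N 1 to 4. It too was far above every control in each dKO-N library (log2 fold change 4.22, SE 0.32, adjusted p = 3.13e-12), though its control levels rest on few counts. The sequence between the starts is shown because the 2 RNAs on either side of it rose together. Printed are the 250 bases before the RefSeq start of Ttc7 (chr17:87282636-87282885, GRCm38.p6, plus strand), with the 72 bases from the start of 4833418N02Rik to the base before that of Ttc7 in capitals.
Ttc7: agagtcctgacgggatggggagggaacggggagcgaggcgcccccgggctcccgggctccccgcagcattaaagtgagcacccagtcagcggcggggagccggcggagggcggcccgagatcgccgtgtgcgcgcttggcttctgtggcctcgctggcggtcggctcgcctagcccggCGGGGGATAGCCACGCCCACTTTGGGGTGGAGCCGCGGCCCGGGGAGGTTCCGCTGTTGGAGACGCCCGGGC
The rises did not extend over the neighbourhood at that size. Among genes tested with a start within 500 kb, Pigf passed with a smaller value (log2 fold change 0.95, adjusted p = 0.0343), and Mcfd2 and Calm2 did not pass. Among 456 pairs of tested genes on opposite strands whose starts lie within 1 kb and point apart, 49 had at least 1 gene past the test and 4 had both. Both members were higher in 4833418N02Rik with Ttc7 and in Fam114a2 with Mfap3 (0.49 and 0.51). Both were lower in Bend6 with Dst (-0.83 and -0.38) and in Trpc5, a cation channel gene, with Rtl4 (-2.10 and -1.83).

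Several other genes that were close to silent in control cortex became measurable in dKO-N. Colec12, which encodes a scavenger receptor of the collectin family, was at 5.65, 4.79, 6.05 and 2.58 CPM in control 1 to 4 and 61.2, 37.3, 44.1 and 36.6 CPM in dKO-N 1 to 4 (log2 fold change 3.10, SE 0.25, adjusted p = 4.49e-11). Tpcn2, a cation channel of endolysosomes, was at 2.83, 3.2, 4.75 and 2.58 CPM in control 1 to 4 and 23.1, 20.5, 26.2 and 16.5 CPM in dKO-N 1 to 4 (log2 fold change 2.58, SE 0.29, adjusted p = 1.98e-08). Tmem176b, a membrane protein gene, was at 3.18, 2.66, 2.59 and 1.03 CPM in control 1 to 4 and 12.2, 21.4, 22.1 and 14.1 CPM in dKO-N 1 to 4 (log2 fold change 2.75, SE 0.34, adjusted p = 1.48e-07). In each of the 3 genes the lowest dKO-N library lay above the highest control, which the rule that chose them required. Lmcd1, a LIM domain protein gene (log2 fold change 2.80), Cfap61, a gene of motile cilia (2.32), Chst9, a sulfotransferase (1.96), Smad6, an inhibitor within BMP signalling (1.79), Hs3st3b1, a heparan sulfate sulfotransferase (1.75), Slc24a4, a sodium, calcium and potassium exchanger (1.73), and Vrk2, a kinase (1.70), rose with separate ranges as well. The call of Hs3st3b1 was lost without control 1 and 3 (adjusted p = 0.0619).

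Rises also reached genes that were well expressed in control. Nkain3, whose product interacts with the sodium pump, was at 753, 742, 703 and 638 CPM in control 1 to 4 and 1469, 1762, 1992 and 1871 CPM in dKO-N 1 to 4 (log2 fold change 1.32, SE 0.10, adjusted p = 7.77e-13). Prkd1, protein kinase D1, was at 113, 79.3, 81.6 and 96.1 CPM in control 1 to 4 and 278, 289, 346 and 363 CPM in dKO-N 1 to 4 (log2 fold change 1.79, SE 0.11, adjusted p = 1.93e-14). In both genes, chosen for separate ranges, the lowest dKO-N library lay well above the highest control. In Nkain3 the rise is a gain on an already abundant RNA. Tmem117 (1.56), the fibrillar collagen gene Col11a1 (1.42), the synaptotagmin gene Syt6 (1.35), the phosphodiesterase gene Pde1c (1.17) and the transcriptional corepressor gene Tle1 (1.16) completed the abundant genes with the largest rises.

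Of all genes that passed, the largest fall was in Scg2, which encodes secretogranin II, a granin packed into secretory vesicles of neurons. Scg2 was at 12, 14.4, 15.1 and 17.6 CPM in control 1 to 4 and 1.36, 0, 2.76 and 0.601 CPM in dKO-N 1 to 4, where every dKO-N value stands for 0 to 2 counts. All dKO-N values lay below all controls (log2 fold change -3.98, SE 0.47, adjusted p = 4.56e-08), but with so few counts the size of the fall is imprecise. The bases before its RefSeq start hold TGACGTCA, the letters of a full cyclic AMP response element, which read the same on both strands. The same letters occur before the start of Lmcd1, a gene that rose, and both sequences are shown for that reason. They are 30 bases around the element, which is in capitals (chr1:79440076-79440105, minus strand, and chr6:112273617-112273646, plus strand, GRCm38.p6).
Scg2: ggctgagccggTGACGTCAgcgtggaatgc
Lmcd1: gccggctaagcTGACGTCAgggtagagttt
The element starts 68 bases before the RefSeq start of Scg2 and 130 bases before that of Lmcd1. GENCODE M21 starts Scg2 farther upstream, so by that annotation the element lies inside the gene. Of the 37 genes named for the size of their change, 32 had a RefSeq promoter, and these were the only 2 of them with the element, against 1.88% of 27025 promoters (250 bases before to 50 after the start). The other motifs searched, both on either strand, were CAGATG, held by 3 of the 32 against 17.2% of all promoters, and TATAAA, held by 4 against 14.2%. A match of letters is a description and no measure of binding.

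Klhl14, a Kelch-family gene (log2 fold change -3.61), and Ntf3, which encodes neurotrophin 3 (-3.31), also came down to 0 to 10 counts in each dKO-N library. Falls of genes with higher counts are measured better. Kcnh1, a voltage-gated potassium channel of the ether-à-go-go family, was at 89, 79.3, 92 and 92.5 CPM in control 1 to 4 and 19, 18.7, 12.4 and 8.11 CPM in dKO-N 1 to 4 (log2 fold change -2.81, SE 0.22, adjusted p = 6.19e-11). Nr4a2, an orphan nuclear receptor made by subplate and deep neurons, was at 78.8, 67.1, 63.1 and 50.1 CPM in control 1 to 4 and 12.2, 6.53, 5.51 and 10.5 CPM in dKO-N 1 to 4 (log2 fold change -2.81, SE 0.26, adjusted p = 6.17e-09). Gpc5, a glypican that carries heparan sulfate on the cell surface, was at 406, 350.4, 292 and 297 CPM in control 1 to 4 and 69.4, 68.1, 73.1 and 35.1 CPM in dKO-N 1 to 4 (log2 fold change -2.60, SE 0.19, adjusted p = 2.83e-08). In all 3 genes, chosen for separate ranges, the highest dKO-N library lay far below the lowest control, and dKO-N 4 was the lowest library for Kcnh1 and Gpc5. Il1rap, a receptor subunit with a synaptic role (-2.56), the estrogen receptor gene Esr1 (-2.51), Glis3, a zinc finger factor (-2.44), Nrgn, a calmodulin-binding protein of dendrites (-2.44), the orexin receptor gene Hcrtr2 (-2.40) and Npas2, a bHLH-PAS factor of the circadian clock (-2.32), fell with separate ranges.

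Among abundant genes, the largest fall was in Fam19a1, which encodes a secreted TAFA-family protein. Fam19a1 was at 1034, 880.2, 1202 and 898 CPM in control 1 to 4 and 234, 382, 214 and 58.9 CPM in dKO-N 1 to 4. The groups stood well apart (log2 fold change -2.25, SE 0.47, adjusted p = 0.0129), yet dKO-N 4 lay far below the other 3. The call was lost in the fit of only the 2 groups (adjusted p = 0.0507), without control 1 and 3 (adjusted p = 0.105) and without control 2 and 4 (adjusted p = 0.0633), so its p is less firm than its ranges. Cntn6, a contactin, was at 229.6, 207, 234 and 204 CPM in control 1 to 4 and 55.8, 62.5, 66.2 and 47.2 CPM in dKO-N 1 to 4 (log2 fold change -1.98, SE 0.13, adjusted p = 1.93e-14). Pcdh15, a protocadherin, was at 865, 733, 773 and 753 CPM in control 1 to 4 and 229.9, 254, 285 and 210.3 CPM in dKO-N 1 to 4 (log2 fold change -1.69, SE 0.13, adjusted p = 3.75e-10). In both genes the 4 dKO-N libraries were close to each other and far below the controls. Cdh18 (-1.91), Rasgrf2, a Ras exchange factor (-1.74), Nwd2 (-1.70) and Sorcs1, a sorting receptor (-1.65), were the remaining abundant falls. The call of Cdh18 was lost without control 1 and 3 (adjusted p = 0.0653).

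**Figure D3:**
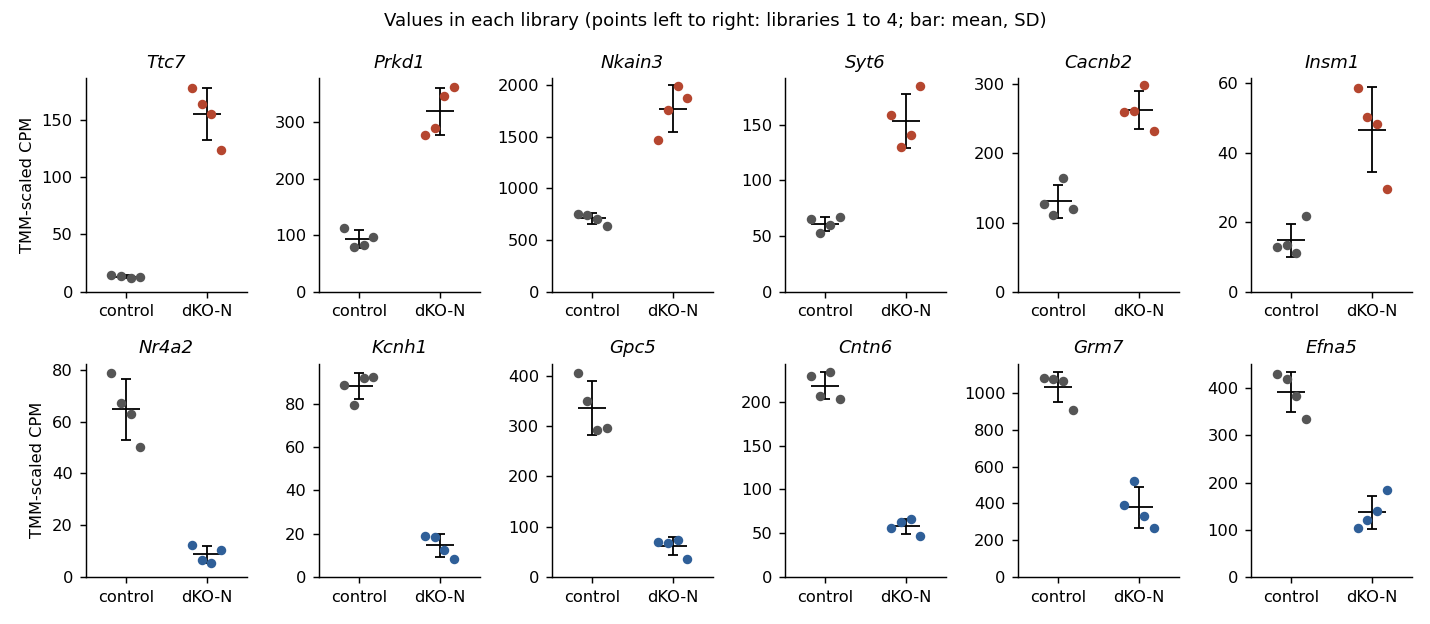
Points are the TMM-scaled CPM of 12 genes in each of the 4 control and 4 dKO-N libraries (left to right within a group, libraries 1 to 4), and bars the mean and SD. The upper row holds genes that rose and the lower row genes that fell. No range overlaps in any of the 12 panels, which the rule required for the genes named by the size of their change.

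The genes that mark excitatory neurons of the cortex fell more often than they rose, unevenly across layers. The gene lists here and below were chosen with earlier results of these data known. Their shares are set against all genes, yet 30.8% of genes with at least 200 CPM in control passed. Of genes over 300 kb and over 100 CPM in control, 32.4% were lower and 9.69% higher. The part of level and length in the list shares was not tested. Of 20 upper-layer genes tested, 10 were lower and 1 was higher, with a median log2 fold change of -0.54, against 6.29% and 5.04% of all genes. Rasgrf2 was at 164, 158, 122 and 172 CPM in control 1 to 4 and 54.4, 43.8, 52.4 and 41.5 CPM in dKO-N 1 to 4 (log2 fold change -1.74, SE 0.13, adjusted p = 1.52e-12), and Nectin3, an adhesion molecule, at 173, 146, 152 and 151 CPM in control 1 to 4 and 42.2, 66.2, 38.6 and 79.3 CPM in dKO-N 1 to 4 (log2 fold change -1.32, SE 0.14, adjusted p = 9.56e-09). Neither gene's groups overlapped. Inhba, which encodes an activin subunit, fell too (-1.29, adjusted p = 9.79e-05), as did Dok5 (399 ± 19.1 to 184 ± 38.4 CPM, -1.09, adjusted p = 3.34e-09), Mef2c, a transcription factor gene (-0.79, adjusted p = 1.37e-07), Rorb, an orphan nuclear receptor of layer 4 (-0.77, adjusted p = 2.59e-07), and Cux1, a homeobox factor (-0.32, adjusted p = 0.028). Cux2 (-0.23, adjusted p = 0.124) did not pass. The adhesion gene Cdh13 went the other way (0.59), though not without control 2 and 4 (adjusted p = 0.0509).

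Deep-layer and subplate genes split between both directions. Of 21 layer 5 genes, 7 were lower and 5 higher (median -0.26), of 20 layer 6 genes 5 and 5 (median -0.06), and of 13 subplate genes 5 and 2 (median -0.01). The shares called were 57.1%, 50% and 53.8%, against 11.3% of all genes. Cntn6 and Tcerg1l (-1.57, adjusted p = 1.23e-07) fell in layer 5, while Bcl11b, the zinc finger factor that directs subcerebral axons, was slightly higher (0.30, adjusted p = 0.0446) and Crym, a thyroid hormone binding protein, rose (1.27, adjusted p = 0.00228), though not with thinned libraries (0.64, adjusted p = 0.367). In layer 6, Syt6 was at 65.3, 52.7, 59.6 and 66.6 CPM in control 1 to 4 and 159, 129.6, 141 and 185 CPM in dKO-N 1 to 4 (log2 fold change 1.35, SE 0.13, adjusted p = 1.53e-09), and the Wnt ligand gene Wnt7b at 54.7, 49.5, 53.6 and 57.9 CPM in control 1 to 4 and 107, 120.3, 109 and 128 CPM in dKO-N 1 to 4 (log2 fold change 1.13, SE 0.14, adjusted p = 8.63e-08). Both were above every control in each dKO-N library, while the orexin receptor Hcrtr2, the sulfatase Sulf1 (-0.90) and the neurotensin receptor Ntsr1 (-0.72) fell. Among factors that specify deep-layer neurons, Tbr1 (0.20, adjusted p = 0.35), Fezf2 (0.30, adjusted p = 0.422) and Tle4 (-0.06, adjusted p = 0.771) did not pass. In subplate, Nr4a2 and the netrin receptor Unc5c (-1.0, adjusted p = 3.95e-06) fell and the adaptor gene Sla rose (0.66, adjusted p = 6.62e-05). Without control 1 and 3 the layer 5 counts were 3 lower and 2 higher, and 3 layer 6 genes were higher without either pair of controls.

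Of 18 genes for factors and markers of newborn neurons, 4 were lower and 3 higher (38.9% called, against 11.3% of all genes). Neurod6, the gene that names the Cre driver, was at 136, 141, 154 and 132 CPM in control 1 to 4 and 62.6, 61.5, 55.1 and 55.6 CPM in dKO-N 1 to 4 (log2 fold change -1.27, SE 0.11, adjusted p = 1.21e-10). Zbtb18, a repressor needed for cortical neuron development, was at 493, 569, 506 and 503 CPM in control 1 to 4 and 242, 248, 265 and 214 CPM in dKO-N 1 to 4 (log2 fold change -1.11, SE 0.10, adjusted p = 5.49e-11). Sox11, a factor of immature neurons, was at 735, 747, 732 and 713 CPM in control 1 to 4 and 886, 959.6, 1013 and 1114 CPM in dKO-N 1 to 4 (log2 fold change 0.44, SE 0.09, adjusted p = 0.000348). None of these 3 overlapped between groups, and the first 2 fell by about the same amount while Sox11 was moderately higher. Its relative Sox4 (0.35, adjusted p = 0.0152) and Zbtb20 (0.41, adjusted p = 0.0205) were higher too, the latter not without control 1 and 3 (adjusted p = 0.0665). Without control 2 and 4 the counts were 2 lower and 1 higher.

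Genes of axon guidance moved in small numbers and both ways, with 17.9% to 27.3% of each list called against 11.3% of all genes. In the Robo, Slit and netrin pathway 4 of 22 were higher and 2 lower (median 0.17), or 3 and 1 without control 1 and 3. Slit1, a repellent ligand, was at 125, 98, 111 and 109.5 CPM in control 1 to 4 and 257, 202, 233 and 196 CPM in dKO-N 1 to 4 (log2 fold change 0.97, SE 0.11, adjusted p = 1.84e-08). Dcc, a netrin receptor of growing axons, rose (1541 ± 147 to 2779 ± 487 CPM, 0.85, adjusted p = 1.76e-06), as did Flrt2, a ligand of Unc5 receptors (0.87, adjusted p = 5.57e-08), whereas Unc5c, a repulsive netrin receptor, fell. For Slit1 every dKO-N library exceeded every control, and the attractive receptor Dcc and the repulsive receptor Unc5c thus changed in opposite directions. Of 18 Eph receptors and ephrins, 2 fell and 2 rose, or 4 and 1 without dKO-N 4. Efna5, an ephrin that guides thalamic and cortical axons, was at 429.8, 419.6, 384 and 335 CPM in control 1 to 4 and 103, 120.3, 139 and 184 CPM in dKO-N 1 to 4 (log2 fold change -1.46, SE 0.17, adjusted p = 3.73e-05), all dKO-N libraries below all controls. The receptor gene Epha7 (-0.61, adjusted p = 0.00737) was lower and Efnb2 (0.39, adjusted p = 0.00876) and Epha5 (0.38, adjusted p = 0.0278) were higher, but Epha7 lost its call without control 1 and 3 (adjusted p = 0.106) and Efnb2 and Epha5 without control 2 and 4 (adjusted p = 0.22 and 0.495). Of 28 semaphorins, plexins and neuropilins, Sema5b (0.76, adjusted p = 2.45e-06) and Plxna2 (0.43, adjusted p = 0.000759) rose and Sema3e (-1.06, adjusted p = 0.000525), Sema7a and Plxna1 fell, with 1 lower without control 2 and 4, and 4 higher and 1 lower without dKO-N 4.

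Adhesion genes fell more often than they rose, with 33.3% to 53.1% of each list called against 11.3% of all genes. Among genes with at least 200 CPM in control the share called was 30.8%, near the lowest of these. Of 32 cadherins and protocadherins 12 were lower and 5 higher (median -0.38), and 2 were higher without control 2 and 4. Besides Pcdh15 and Cdh18, Pcdh17 (-1.21, adjusted p = 5.45e-08), the atypical cadherin Fat1 (-1.17, adjusted p = 1.37e-09) and Pcdh7 (-0.80, adjusted p = 1.15e-07) fell, and Cdh4 (0.71, adjusted p = 3.25e-06) and Celsr1, a planar polarity cadherin (0.98, adjusted p = 3.95e-05), rose. Of 20 contactins and genes of the L1, NCAM and DSCAM families, 8 were lower and 1 higher (median -0.20). Cntn4, which is encoded next to Cntn6 and like it is tethered to the outer membrane, was at 284, 288, 256 and 281 CPM in control 1 to 4 and 76.2, 121, 102 and 76.6 CPM in dKO-N 1 to 4 (log2 fold change -1.59, SE 0.12, adjusted p = 7.77e-13). The fall covered every dKO-N library. The exception was Dscaml1 (0.47, adjusted p = 0.00111), whose call was lost without control 2 and 4 (adjusted p = 0.0615). Of 33 synaptic adhesion genes, 10 were lower and 1 higher (median -0.26), or 6 and 1 without control 1 and 3. The teneurins Tenm1 (-0.80) and Tenm3 (-0.55) fell, while Tenm4 rose (0.56, adjusted p = 7.34e-05).

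**Figure D4:**
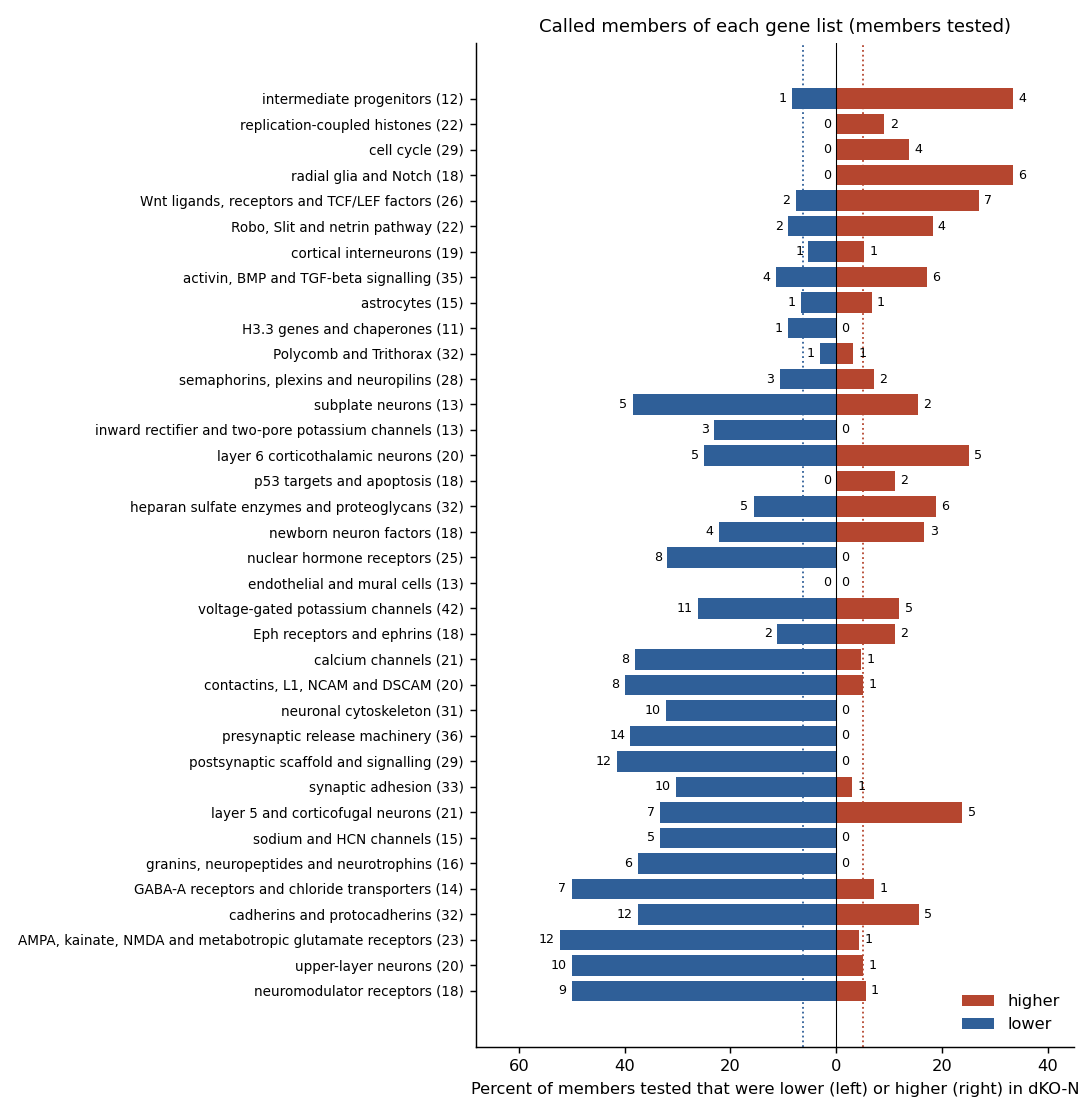
Bars give, for each list with at least 10 genes tested, the percent of its members lower (blue, left) and higher (red, right) in dKO-N, with the number of members beside each bar, in order of the median log2 fold change. Dotted lines mark the share of all genes tested, 6.29% lower and 5.04% higher, which is not matched to the level or length of the members. The lists of receptors, channels and synaptic genes lie toward the bottom with long blue bars, and those of progenitors toward the top.

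The genes of synaptic release and of the postsynaptic side that passed were all lower. They were 38.9% and 41.4% of those tested, against 6.29% of all genes lower. Of 36 genes of presynaptic release, 14 were lower and 0 higher (median -0.22), 6 and 0 without control 2 and 4. Unc13c, a priming factor, was at 63.2, 57, 79.9 and 64.1 CPM in control 1 to 4 and 15, 24.2, 23.4 and 18.9 CPM in dKO-N 1 to 4 (log2 fold change -1.71, SE 0.17, adjusted p = 6.59e-10). Syt4, a synaptotagmin, was at 165, 181, 163 and 118 CPM in control 1 to 4 and 80.3, 79.3, 81.3 and 76.9 CPM in dKO-N 1 to 4 (log2 fold change -0.99, SE 0.12, adjusted p = 1.78e-07). Both fell in every dKO-N library. Slc17a7, the vesicular glutamate transporter, fell from low counts (-1.12, adjusted p = 0.00727) and lost its call without control 1 and 3 (adjusted p = 0.07), without control 2 and 4 (adjusted p = 0.0515) and without dKO-N 4 (-0.66, adjusted p = 0.185), and the calcium sensor Syt1 (-0.47, adjusted p = 0.000261) and the synapsin Syn1 (-0.59, adjusted p = 0.00243) fell less. Of 29 postsynaptic scaffold and signalling genes, 12 were lower and 0 higher (median -0.23), or 7 and 0 without control 1 and 3. Dlg2, which encodes the scaffold PSD-93, fell from a high level (4187 ± 356 to 1928 ± 260.1 CPM, -1.12, adjusted p = 3.43e-11). Camk2b fell (-0.54, adjusted p = 7.6e-05), and Camk2a did not pass (-0.23, adjusted p = 0.678).

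Receptor genes that passed were mostly lower, with 55.6% to 57.1% of each list called against 11.3% of all genes. Of 23 glutamate receptor genes 12 were lower and 1 higher (median -0.49). Grm7, a presynaptic metabotropic receptor, was at 1083, 1078, 1063 and 909 CPM in control 1 to 4 and 392, 524, 334 and 265 CPM in dKO-N 1 to 4 (log2 fold change -1.46, SE 0.17, adjusted p = 1.65e-05). Grin2a, the NMDA receptor subunit that gains during maturation, was at 294, 286, 274 and 265 CPM in control 1 to 4 and 158, 118, 157 and 85.6 CPM in dKO-N 1 to 4 (log2 fold change -1.19, SE 0.14, adjusted p = 4.7e-07). The AMPA receptor subunit gene Gria1 was at 854, 796, 827 and 793 CPM in control 1 to 4 and 1195, 935, 1292 and 1155 CPM in dKO-N 1 to 4 (log2 fold change 0.48, SE 0.09, adjusted p = 0.000256). Grm7 and Grin2a fell in every dKO-N library and Gria1 rose in every one, without overlap. Of 14 GABA-A receptor and chloride transporter genes, 7 were lower and 1 higher (median -0.36). Gabra5 (-1.0, adjusted p = 0.000243), Gabra3 (-0.77, adjusted p = 6.34e-05) and Slc12a5, the potassium chloride cotransporter KCC2 (-0.99, adjusted p = 0.00222), fell, the last not without dKO-N 4 (adjusted p = 0.0671), and Gabra2 was the exception (0.79, adjusted p = 7.69e-07). Of 18 receptors for neuromodulators and peptides, 9 were lower and 1 higher (median -0.83). They included the serotonin receptors Htr1f (-1.32, adjusted p = 5.95e-07) and Htr2a (-1.38, adjusted p = 0.00183), the muscarinic receptor Chrm2 (-1.34, adjusted p = 5.26e-07) and the opioid receptor Oprm1 (-1.65, adjusted p = 0.00396, but 0.13 without control 1 and 3), while the cannabinoid receptor Cnr1 rose (0.57, adjusted p = 7.67e-05).

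Ion channel genes fell in each class and rose in some, with 23.1% to 42.9% of each list called against 11.3% of all genes. Of 42 voltage-gated and calcium-activated potassium channel genes and their subunits, 11 were lower and 5 higher (median -0.14), or 7 and 3 without control 1 and 3, with Kcnh1 the largest fall and Kcnma1, the large-conductance channel, among the abundant ones (939 ± 50.2 to 588 ± 76.2 CPM, -0.68, adjusted p = 7.65e-07). Kcnd3 (0.48, adjusted p = 0.000476), an A-type channel, and Kcnip1 (0.51, adjusted p = 0.000368), a partner of such channels, rose. Of 13 inward rectifier and leak channels 3 were lower and 0 higher, with Kcnj2 at 20.5, 23.4, 16.4 and 24.8 CPM in control 1 to 4 and 5.44, 4.66, 4.14 and 6.01 CPM in dKO-N 1 to 4 (log2 fold change -1.96, SE 0.28, adjusted p = 2.16e-06). Of 21 calcium channel genes 8 were lower and 1 higher (median -0.19). The T-type channel Cacna1g was at 127, 119, 117 and 116 CPM in control 1 to 4 and 55.8, 64.3, 56.5 and 43.6 CPM in dKO-N 1 to 4 (log2 fold change -1.18, SE 0.13, adjusted p = 1.1e-08), and the auxiliary subunit Cacnb2 at 127, 111, 164 and 119.9 CPM in control 1 to 4 and 259.9, 262, 299 and 232 CPM in dKO-N 1 to 4 (log2 fold change 0.99, SE 0.11, adjusted p = 7.85e-09). The channel fell and the auxiliary subunit rose in every dKO-N library. Of 15 sodium and HCN channel genes 5 were lower and 0 higher (median -0.27), among them the sodium channel gene Scn2a (-0.47, adjusted p = 0.000173).

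Among secreted peptides and the neuronal skeleton, the genes that passed were all lower. They were 37.5% and 32.3% of those tested, against 6.29% of all genes lower. Of 16 granin, neuropeptide and neurotrophin genes, 6 were lower and 0 higher (median -0.34). Pcsk2, the convertase that cuts peptide precursors in secretory granules, fell (319 ± 10.3 to 111 ± 7.17 CPM, -1.52, adjusted p = 1.58e-14), and so did Ntrk2, the BDNF receptor (-0.60, adjusted p = 3.88e-05). Vgf, a granin made in active neurons, was at 8.12, 8.52, 9.5 and 18.6 CPM in control 1 to 4 and 1.36, 1.87, 2.76 and 0 CPM in dKO-N 1 to 4 (log2 fold change -3.53, SE 0.59, adjusted p = 3.9e-05), with 0 to 2 counts in each dKO-N library. Of 31 cytoskeleton genes 10 were lower and 0 higher (median -0.22), or 6 and 0 without control 2 and 4. Gap43, a growth cone protein, was at 249.7, 263, 245 and 221 CPM in control 1 to 4 and 133, 133, 142 and 158 CPM in dKO-N 1 to 4 (log2 fold change -0.77, SE 0.10, adjusted p = 1.36e-07). The neurofilament genes Nefl (-1.40, adjusted p = 0.000238) and Nefm (-1.37, adjusted p = 8.98e-05) fell further, and the microtubule genes Mapt (-0.32, adjusted p = 0.0104) and Stmn2 (-0.31, adjusted p = 0.0209) less. For Gap43 no dKO-N library reached the lowest control. Of 7 immediate early genes tested (57.1% called, against 11.3% of all genes), Nr4a3 (-1.33, adjusted p = 5.03e-07), Dusp6 and Homer1 were lower. Jund (0.59, adjusted p = 0.0443) was higher, though not without control 1 and 3 (adjusted p = 0.326).

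Genes of dividing and immature cells that passed were mostly higher. The share called was 33.3% for radial glia and Notch, 41.7% for intermediate progenitors and 13.8% for the cell cycle, the last near the 11.3% of all genes. Of 18 radial glia and Notch genes, 6 were higher and 0 lower (median 0.36). Pax6, a factor of radial glia, was at 15.2, 19.7, 15.5 and 13.9 CPM in control 1 to 4 and 42.2, 27, 28.9 and 30.9 CPM in dKO-N 1 to 4 (log2 fold change 0.98, SE 0.20, adjusted p = 0.000629). Notch2 was at 43.4, 50.6, 43.2 and 39.3 CPM in control 1 to 4 and 61.2, 101, 84.1 and 77.2 CPM in dKO-N 1 to 4 (log2 fold change 0.88, SE 0.14, adjusted p = 9.56e-06). In both genes every dKO-N library lay above every control. Prom1 (0.95, adjusted p = 0.000186), Vim (0.69, adjusted p = 0.00318), Ptprz1 (0.42, adjusted p = 0.00317) and Slc1a3 (0.37, adjusted p = 0.0134) also rose, but with every library thinned to the smallest total Pax6 and Prom1 just missed the threshold (adjusted p = 0.0502 and 0.0518). Of 12 intermediate progenitor genes 4 were higher and 1 lower (median 0.67). Insm1, a zinc finger factor that drives delamination of these cells, was at 12.7, 13.3, 11.2 and 21.7 CPM in control 1 to 4 and 58.5, 50.4, 48.2 and 29.4 CPM in dKO-N 1 to 4 (log2 fold change 1.57, SE 0.22, adjusted p = 2.85e-06), while the factor Eomes did not pass (0.74, adjusted p = 0.137). Kif26b fell (-1.04, adjusted p = 2.84e-10), and as the most abundant member it took the list's sum down, from between 1033 and 1203 CPM in control to between 844 and 1025 CPM in dKO-N. Of 29 cell cycle genes, 4 were higher and 0 lower (median 0.38), among them Ccnd2 (0.45, adjusted p = 0.0183), whereas Mki67 (0.42, adjusted p = 0.182) and Top2a (0.34, adjusted p = 0.47) did not pass. Without dKO-N 4 the counts were 1 higher for intermediate progenitors and 0 for the cell cycle, and without control 1 and 3 they were 2 and 1.

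Chromatin genes passed at shares of 6.25% to 9.09% by list, near the 11.3% of all genes. Among 11 H3.3 genes and chaperones, Cabin1, part of the HIRA complex, was lower (-0.31, adjusted p = 0.0479) and lost its call with DESeq2 (adjusted p = 0.085), in the fit of 2 groups and without any 1 dKO-N library, and the chaperone genes Hira (0.09, adjusted p = 0.899), Daxx (0.13, adjusted p = 0.817) and Atrx (0.03, adjusted p = 0.906) did not pass. Of 22 replication-coupled histone genes 2 were higher and 0 lower, Hist1h2af (0.89, adjusted p = 0.00386) and Hist1h4d (0.85, adjusted p = 0.0343), with a median of 0.60 over low counts. The list summed to between 377.9 and 480.9 CPM in control and between 465.9 and 728.3 CPM in dKO-N, so the groups overlapped. Of 32 Polycomb and Trithorax genes 1 was higher and 1 lower, and neither call held without control 2 and 4. Kdm6a, an H3K27 demethylase, was the higher gene (0.36, adjusted p = 0.0472). Of 18 genes of p53 targets and apoptosis, Trp53inp1 (0.59, adjusted p = 0.034) and Sesn1 (0.43, adjusted p = 0.0222) were higher and 0 lower, and 0 were higher without dKO-N 4. At 11.1%, the share called was about that of all genes.

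Signalling genes were mixed, with 28.6% to 34.6% of each list called against 11.3% of all genes. Of 26 Wnt pathway genes, 7 were higher and 2 lower (median 0.34), or 3 and 1 without control 1 and 3. Wnt7b rose, as did the Wnt receptor gene Ror2 (1.06, adjusted p = 1.31e-07) and the feedback inhibitor Nkd1 (0.96, adjusted p = 0.00168). Ctnnb1, beta-catenin, was slightly higher (0.33, adjusted p = 0.0223), and the inhibitor family member Dkk3 fell (-0.66, adjusted p = 0.0064). Of 35 activin, BMP and TGF-beta genes, 6 were higher and 4 lower (median 0.13), or 2 and 4 without dKO-N 4 and also without control 2 and 4. The ligand gene Tgfb2 was at 33.5, 30.9, 20.7 and 27.9 CPM in control 1 to 4 and 53.1, 46.6, 84.1 and 56.8 CPM in dKO-N 1 to 4 (log2 fold change 1.05, SE 0.17, adjusted p = 1.6e-05), while the receptor gene Tgfbr1 (-0.67, adjusted p = 1.49e-05) and the ligand gene Inhba fell. Tgfb2 lay above every control in each dKO-N library. Of 32 heparan sulfate enzymes and core proteins, 6 were higher and 5 lower (median -0.09). The glypicans moved apart: Gpc5 fell, while Gpc4 (1.46, adjusted p = 0.00258), Gpc3 (1.43, adjusted p = 0.00776) and Gpc6 (0.60, adjusted p = 8.12e-06) rose. Of the enzymes, Chst9 and Hs3st3b1 rose and the sulfotransferase Hs6st2 (-1.16, adjusted p = 1.9e-09) and the sulfatases Sulf1 and Sulf2 fell. Of 25 nuclear hormone receptors 8 were lower and 0 higher (median -0.12), or 5 and 0 without control 1 and 3, Nr4a2 and Esr1 most and the thyroid hormone receptor Thrb less (-0.44, adjusted p = 0.0312).

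Markers of interneurons (10.5%) and astrocytes (13.3%), cells outside the Neurod6 lineage, passed at about the share of all genes (11.3%). Of 19 interneuron genes 1 was higher and 1 lower. Npy, a peptide also counted among neuropeptides, fell (-1.89, adjusted p = 0.000138), while Gad1, Gad2 and Lhx6 did not pass. The summed interneuron list reached at most 5772 CPM in control and 5561 CPM in dKO-N, with overlapping ranges. Of 6 Cajal-Retzius genes, 8 of the oligodendrocyte lineage, 13 of vessel cells, 3 each of microglia and red blood cells and 1 each of meninges and choroid plexus, 0 passed in either direction. Of 15 astrocyte genes Slc1a3 was higher and Bcan lower (-0.46, adjusted p = 0.0424), both lost without either pair of controls, and Bcan also with DESeq2 (adjusted p = 0.101) and without dKO-N 4 (-0.30, adjusted p = 0.305). Reln, a Cajal-Retzius and interneuron gene, was at 439, 413, 369 and 380.2 CPM in control 1 to 4 and 379.6, 437, 347 and 447 CPM in dKO-N 1 to 4, with overlapping ranges. Red cell transcripts, a measure of blood carried over, were within the same range in both groups, 36.4 to 57.5 CPM in control and 33.1 to 59.9 CPM in dKO-N. The summed microglia list, 16 genes of which 3 were tested, was at 28.2 to 36.7 CPM in control and 40 to 51.4 CPM in dKO-N. The vessel cell list, 18 genes of which 13 were tested, was at 209 to 229 CPM in control and 177 to 207 CPM in dKO-N. Neither list overlapped between groups, and the part of these cells in other results was not tested. Of 7 striatal genes (42.9% called) Meis2 was higher (0.49, adjusted p = 0.00426) and Foxp1 and Rgs9 lower. The sum of the striatal list, 15 genes of which 7 were tested, was largest for dKO-N 4, with 2953 CPM. No other dKO-N library exceeded 2088 CPM, and the controls spanned 1881 to 2084 CPM. Whether striatal RNA had a part in the results of dKO-N 4 was not tested. Of 8 thalamic and hypothalamic genes (25% called) Lef1 was higher (0.87, adjusted p = 0.0107) and Rora lower (-0.35, adjusted p = 0.0273). Lef1 and Rora lost their calls without control 1 and 3 or without dKO-N 4, as Meis2 did without control 2 and 4 (adjusted p = 0.0986).

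The genes around Neurod6 on chromosome 6 were examined because the driver is named for that gene. Of 35 other genes tested with a start within 5 Mb, 9 passed (25.7%, against 11.3% of all genes), 8 higher and 1 lower. The same windows held 11.5% around H3f3a, 6.54% around H3f3b and 14.5% around Emx1. Emx1, which names the other driver and is a cortical homeobox gene, did not pass (0.42, adjusted p = 0.245). Gm3279, a long noncoding RNA gene that starts 3.31 kb from Neurod6 (chr6:55684571-55694574, mm10), was at 3.53, 3.73, 1.73 and 2.07 CPM in control 1 to 4 and 117, 101, 95.1 and 123 CPM in dKO-N 1 to 4. It gave the largest change of the whole comparison (log2 fold change 5.28, SE 0.24, adjusted p = 7.13e-19). Itprid1, 156 kb away, was at 5.65, 12.8, 6.05 and 8.78 CPM in control 1 to 4 and 12.2, 11.2, 15.2 and 37.8 CPM in dKO-N 1 to 4 (log2 fold change 1.58, SE 0.36, adjusted p = 0.00696), so that its call rests on dKO-N 4 and was lost without it (adjusted p = 0.234) and without control 1 and 3 (adjusted p = 0.147). Pde1c, 888 kb away, was at 53.7, 44.7, 47.5 and 52.7 CPM in control 1 to 4 and 95.2, 96, 109 and 134 CPM in dKO-N 1 to 4 (log2 fold change 1.17, SE 0.12, adjusted p = 2.95e-09). Both Gm3279 and Pde1c stood above every control in each dKO-N library. Skap2 (1.43), Creb5 (0.84), Znrf2 (0.70), Herc3 (0.52) and Chn2 (0.34) rose and Gars fell (-0.39). In dKO-E, made with the other driver, Itprid1 (3.03), Pde1c (1.79), Skap2 (1.32), Creb5 (1.06) and Znrf2 (0.60) were also higher than control past the test. Gm3279 (-0.53, adjusted p = 0.482), Herc3 (0.04, adjusted p = 0.854), Chn2 (0.19, adjusted p = 0.133) and Gars (0.06, adjusted p = 0.762) did not pass in dKO-E against control. By their label the dKO-N libraries all carry the Neurod6-Cre driver, so for genes changed near Neurod6 the driver allele and the H3.3 deletion cannot be told apart within dKO-N.

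**Figure D5:**
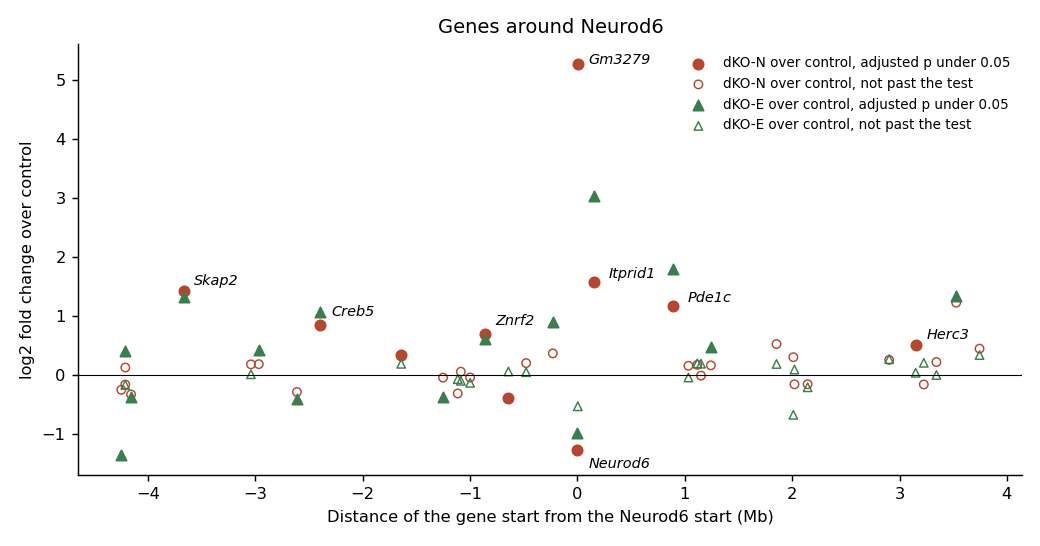
Points give the log2 fold change over control of each gene tested by the distance of its start from the Neurod6 start, for dKO-N (circles) and dKO-E (triangles), filled where the adjusted p was under 0.05. Gm3279 is far above 0 in dKO-N alone, while Itprid1 and Pde1c are above 0 in both knockouts.

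dKO-N and dKO-E differed directly in 758 genes (6.84%), 345 higher in dKO-E (3.11%) and 413 lower (3.73%), in a test that does not use the control libraries' means. Of the 1255 genes called in dKO-N, 221 differed between the knockouts (17.6%), a share that uses the same dKO-N libraries in both tests: in 79 dKO-E lay farther from control in the same direction, and in 142 it lay nearer control or on its other side. Without dKO-N 4 the count of differences was 300. It was 476 without dKO-E 3 and 421 without dKO-E 4, the libraries with many Y-linked counts. The count fell to 569 without dKO-E 1 and 530 without dKO-E 2 as well, and the part of sex was not tested. By size of the log2 difference, Scg2 (2.87), the predicted gene Gm28905 (1.96), Lpl, lipoprotein lipase (1.64), Itprid1 (1.44) and Cpne8 (1.40) were the highest in dKO-E relative to dKO-N, at adjusted p from 0.000593 to 0.00905. Gm3279 (-5.81, adjusted p = 4.42e-19), the predicted genes 2700069I18Rik (-1.45) and Gm29260 (-1.16), the zinc finger gene Zfp975 (-1.15) and the serotonin receptor gene Htr1f (-1.15) were lower in dKO-E, the last 4 with adjusted p from 0.00023 to 0.0216. Neurod6 itself was lower than control in both knockouts and did not differ between them past the test (0.29, adjusted p = 0.14). Ttc7 (0.48, adjusted p = 0.188) and 4833418N02Rik (0.29, adjusted p = 0.4) did not pass between the knockouts either.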

How the data were processed

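RNA of P0 mouse cortex was measured in 12 libraries, and the 4 dKO-N were compared with the 4 control libraries, grouped by their titles. The authors deposited unnormalised read counts by gene, 1 file per library with 51912 gene lines and 5 summary lines, which were left out (reads with no feature, 6.65% to 8.94% of each library of the 2 groups). The tools named per the submitters' processing notes are HTSeq, STAR and UMI-tools, and the build is mm10. Versions, the use of strand and the counting of introns were not given in the sources used here, so overlapping and antisense genes are uncertain. GENCODE M21 names matched 99.6% of the identifiers.

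Counts were filtered with filterByExpr (minimum count 10, leaving 11076 genes and 99% of the counts), scaled by TMM and tested with edgeR 4.0.16 (glmQLFit robust, glmQLFTest; R 4.3.3, limma 3.58.1) in 1 fit of all 12 libraries with 9 residual degrees of freedom. Benjamini-Hochberg adjustment ran over the 11076 genes, with a threshold of 0.05, and SE is the standard error of the log2 fold change. CPM values are TMM-scaled, with SD over 4 libraries (n = 4). The floor of 3 counts covers counting error only. Every 2 replicates differed by more than counting noise (chi-square over its degrees of freedom 1.62 to 6.09), so none was counted as a duplicate. On simulated counts with 200 changed genes, 46.6% of genes changed 1.5-fold, 78.8% changed 2-fold and 97% changed 4-fold were recovered, with 4.26% false calls (10860 genes, 5 draws). Apart from the changed genes, the simulated libraries shared the same mean shares, with a spread set by expression level alone. No simulated library stood apart and the controls were not split, so these rates do not carry over to the real libraries.

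The comparison, the 45 gene lists and the rules were chosen with earlier results of these data known. Named genes are H3f3a, H3f3b, Neurod6 and Emx1; the 12 largest rises and falls whose log2 CPM averaged at least 3, and the 8 with at least 6, that passed with separate ranges; 3 predicted genes each way; the 5 largest differences each way between the knockouts; and up to 3 changed members of a list in its main direction and 2 in the other. Other list members, Pigf and the genes of the divergent pairs and the Neurod6 window were named after their values were seen. Some genes that met the rule are not reported here. Promoters are RefSeq GRCm38.p6. They matched 77.1% of the genes tested, under the 80% needed, so a comparison of promoter content between higher and lower genes was void and was not made. Alternatives were DESeq2 1.42.0, other scalings, filters and fits, thinned counts and leaving out libraries. Tables and plots used Python 3.11.15, pandas 2.3.3 and matplotlib 3.10.9.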

Additional observations from a re-analysis of the deposited data

Results flagged for a closer look

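In 15 of 360 groups of 4 libraries (4.17%) a single library stood apart from the other 3 by Dixon's criterion, where chance alone gives about 1 in 20. In dKO-N 4, Gpc5 measured 35.1 CPM while its 3 replicates held 68.1 to 73.1, Itprid1 measured 37.8 against 11.2 to 15.2 and Lef1 measured 22.2 against 14 to 15.2. Kcng3 in dKO-N 1 reached 24.5 CPM against 11 to 13.2, Hcrtr2 was at 0 there against 3.73 to 4.14, and Cabin1 was at 95.1 in dKO-N 3 against 111 to 113. Among controls, control 1 stood apart for Dscaml1 (815 CPM), Zfp975 (28.6) and Sfrp2 (4.59), control 2 for Zbtb18 (569), Hcrtr2 (22.4) and Igf2 (6.39), control 3 for Efnb2 (316), and control 4 for Grm7 (909) and Vgf (18.6). Of these genes, Itprid1 and Lef1 lost their calls without dKO-N 4, Cabin1 without dKO-N 3, Kcng3 without dKO-N 1 and Sfrp2 without control 1, in each case the library that stood apart. Cabin1, Kcng3 and Sfrp2 also lost them without other single libraries, such as control 2 for Cabin1 (adjusted p = 0.121) and Kcng3 (0.0828) and dKO-N 1 for Sfrp2 (0.0948).

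The change from the same controls differed between dKO-E and dKO-N for the 5 genes with the largest differences each way, chosen by size, by the test of dKO-E minus dKO-N (log2, edgeR's quasi-likelihood test with Benjamini-Hochberg adjustment). Scg2 (2.87, adjusted p = 0.000759), Gm28905 (1.96, adjusted p = 0.000593), Lpl (1.64, adjusted p = 0.00905), Itprid1 (1.44, adjusted p = 0.00446) and Cpne8 (1.4, adjusted p = 0.00183) were higher in dKO-E. Gm3279 (-5.81, adjusted p = 4.42e-19), 2700069I18Rik (-1.45, adjusted p = 0.00785), Gm29260 (-1.16, adjusted p = 0.0216), Zfp975 (-1.15, adjusted p = 0.00023) and Htr1f (-1.15, adjusted p = 0.00129) were lower in dKO-E.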

How the results depend on the processing

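The count of genes that passed in dKO-N, 1255 (558 higher, 697 lower), was 756 (299 and 457) without control 1 and 3, 700 (255 and 445) without control 2 and 4, and 766 (303 and 463) with every library thinned to the smallest total. Leaving out each library in turn gave 972 to 1298, and 843 of the 1107 genes called without dKO-N 4 were among the 1255. RLE size factors, library totals, no filter, a minimum count of 30, the fit of 2 groups and DESeq2 gave 1041 to 1314. The replicate numbers did not pair the libraries (same-number correlations -0.124 to 0.011), and with a replicate block 1065 genes passed, 1037 of them shared. The highest correlation across the groups was that of control 1 with dKO-N 4, the deepest library of each group, at 0.227. Between the knockouts the count of 758 became 488 in the fit of 2 groups, 500 with a replicate block and 300 thinned. Leaving out each library gave 300 (without dKO-N 4) to 1036 (without dKO-N 2), with 569, 530, 476 and 421 without dKO-E 1 to 4. The direction of H3f3a (0.94) and H3f3b (-0.14) reversed without control 2 and 4, and both passed without control 1 and 3 (-1.84 and 0.57). Of 165 named genes that passed, 121 passed whichever single library was left out and 102 under every alternative. The causes were not tested. At 722080 counts in dKO-N 1, genes under about 5 CPM are measured poorly.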

Other observations

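Among genes with predicted names, the long noncoding RNA gene Gm30382 fell from 419 ± 38.5 CPM in control to 103 ± 21 CPM in dKO-N (SD, n = 4; log2 fold change -2.01, edgeR adjusted p = 1.58e-14), and Gm10287 fell from 18.7 ± 4.77 to 4.21 ± 2.37 CPM (-1.96, edgeR adjusted p = 7.36e-05). Gm36251 was lower as well (-1.73, edgeR adjusted p = 0.00333), but not without control 2 and 4 (0.0528) or without dKO-N 4 (0.0851). Gm27166 rose from 1.88 ± 0.29 to 9.83 ± 5.09 CPM (2.31, edgeR adjusted p = 0.000454), with a wide spread in dKO-N.

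Outside the rule for named genes, and chosen after their values were seen, Tgif1, a homeobox repressor gene, and Stra6, a retinol transporter gene, had fitted log2 fold changes of 4.45 and 3.45 (edgeR adjusted p = 0.000696 and 0.0146). Each had 0 or 1 count in every control library. Tgif1 had 4, 5, 4 and 8 counts in dKO-N 1 to 4 and Stra6 had 8, 2, 1 and 6, so the size of both changes depends on the model.

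Over the 1100 of 1107 genes called without dKO-N 4 that were also tested with it, the median distance, on the scale of log2(CPM + 1) and signed by the call, from the control mean was 0.702, 0.694 and 0.662 in dKO-N 1 to 3 and 0.518 in dKO-N 4, which was the library nearest control for 498 of them (45.3%). The calls were made with dKO-N 1 to 3, so these values describe the libraries and test nothing.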
